A study of Mus musculus with 20 samples.

Results

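Selenium given together with ptaquiloside was compared with ptaquiloside alone in natural killer (NK) cells from mouse spleen, using 9 of the 20 microarrays of the study. The PtSe group, 5 male C57BL/6 mice, received ptaquiloside at 5.3 mg/kg plus selenium at 1.3 mg/kg. The Pt group received the same ptaquiloside dose without selenium, and 4 of its 5 mice were used (mice 1, 2, 3 and 5). The arrays were chosen by their titles, and the array of Pt mouse 4 was left out because it was dim. The remaining groups serve as context: Se (selenium alone at 1.3 mg/kg, 5 mice) and control (water, 5 mice). Dosing was by gavage on each of 14 days in every group, each array held RNA of a different donor mouse, and the age of the mice was not given in the sources used here. The comparison asks what selenium adds in animals that also receive ptaquiloside.

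NK cells are lymphocytes of innate immunity that kill stressed or infected cells with granules of perforin and granzymes and secrete cytokines such as interferon gamma. Ptaquiloside is the main carcinogenic glucoside of bracken fern. In the body it yields an electrophile that alkylates DNA. Selenium is an essential trace element that is built, as selenocysteine, into selenoproteins such as the glutathione peroxidases and thioredoxin reductases, which reduce peroxides and oxidised thiols.

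All values below are log2 relative signals: the log2 of a spot's background-subtracted signal minus the log2 of its array's 75th percentile, so that 0 is that percentile. Per-mouse values run in the order of mice 1 to 5 for PtSe and 1, 2, 3 and 5 for Pt. Differences are PtSe minus Pt from a linear model of 19 arrays with slide as a block, given ± the standard error. Each of the 5 slides carried 1 mouse of each group with the same number, and each group kept 1 place on all slides, so an effect of that place cannot be told apart from treatment. The excluded array had a 75th percentile of 10.5 scanner units with 36.3% of spots well above background, against 45.5 to 133 units and 51.7% to 60.8% on the other 19. The lowest of those 19 was PtSe mouse 5, whose median correlation with the other arrays was 0.953, against 0.969 to 0.982 for the other 18. Because that array stood apart, values without it are given beside many of the group results. A result without such a value may depend on that array too.

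The cells were collected untouched on magnetic columns, by removing the other cells of the spleen, so RNA of cells that were left behind is part of every array. Of the 29 NK receptor genes tested, 28 were well above background on all 5 PtSe arrays and 29 on all 4 Pt arrays, among them Ncr1, Klrb1c, Klrd1 and Klrk1. Some defining markers of B cells (Cd79a, Ms4a1), T cells (Cd3e, Cd3d) and macrophages (Adgre1, Csf1r) were also well above background on every PtSe and Pt array. On all 5 PtSe arrays this held for 14 of 19 B cell, 12 of 14 T cell and 19 of 22 macrophage and monocyte markers tested. For neutrophil and dendritic cell markers it held for 20 of 21 and 15 of 18. On all 4 Pt arrays the counts were 15, 13, 20, 20 and 17 in the same order. In such bulk samples fewer cells of a type and less RNA per cell cannot be told apart.

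No gene passed the test. Of 17188 genes, limma called 0 at an adjusted p under 0.05 (0% of genes, lowest adjusted p = 0.926). Without adjustment, 776 genes (4.51% of all genes tested) had a p under 0.05, of which 401 were higher (2.33%) and 375 lower (2.18%). In all, 50.8% of genes lay higher and 49.2% lower, with a median difference of 0.0043. Differences beyond 1 were found for 111 higher and 33 lower genes. PtSe lay above the Pt mouse of the same slide on all 4 slides for 920 genes (5.35%) and below it for 920 (5.35%). The groups did not overlap for 53 genes with PtSe higher (0.308%) and 76 with PtSe lower (0.442%). Many genes below were named for a small p, which favours such genes, so each lack of overlap is a description. Without PtSe mouse 5, still 0 genes were called, with 282 higher and 570 lower genes at an unadjusted p under 0.05, and the lowest adjusted p was 0.101.

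**Figure D1:**
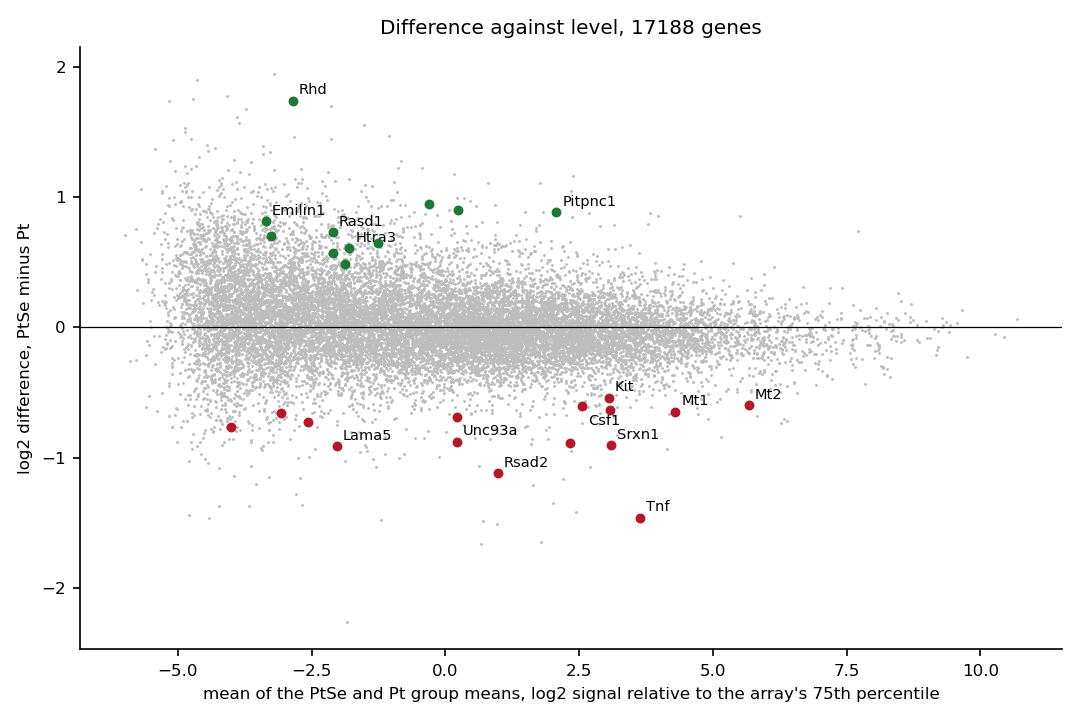
Each grey point is 1 gene, with its mean level in the PtSe and Pt groups on the x axis (log2 relative signal) and the PtSe minus Pt difference on the y axis (log2). The coloured points are the 20 genes with the smallest p that held their direction on all 4 slides, plus Mt1, Mt2, Tnf, Rsad2, Rhd and Srxn1, green for higher and red for lower, and the cloud of all 17188 genes is centred near 0 and widens at low signal.

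The genes described first are the 10 with the smallest p in each direction among those that kept one direction on all 4 slides, have a gene symbol and were well above background on every array of the PtSe group or of the Pt group. Of all genes, 563 higher and 787 lower ones met these conditions. That choice fixes their direction on the slides, and all 20 had an adjusted p of 0.926 in limma, so none of them passed the test. Emilin1, which encodes a glycoprotein of the elastic extracellular matrix, had log2 relative signals of -3.11, -3.28, -3.04, -2.38 and -2.79 in PtSe mice, against -4.08, -3.38, -3.69 and -4.04 in Pt mice. The difference was 0.81 ± 0.24. Its probe was well above background on all 5 PtSe arrays but only 3 of the 4 Pt arrays, so it met the conditions through the group where it was brighter, and its values are a description. Pitpnc1, a phosphatidylinositol transfer protein, read 2.15, 2.23, 2.27, 2.33 and 3.51 in PtSe mice, against 1.02, 1.97, 1.68 and 1.95 in Pt mice, without overlap, which was so for 0.308% of all genes in this direction. The difference was 0.89 ± 0.29. It depended on the probe: 1 of the 6 lay in the other direction, and the mean of all probes gave 0.33.

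Kifc1, a kinesin motor of the mitotic spindle, and its close paralog Kifc5b had differences of 0.90 ± 0.28 and 0.94 ± 0.27. Kifc1 read 0.91, 0.76, 0.31, 0.40 and 0.94 in PtSe mice, against -1.06, 0.34, -0.034 and -0.0044 in Pt mice, with Pt mouse 1 far below the rest. Without that mouse the differences were 0.54 for Kifc1 and 0.61 for Kifc5b. The sequences of both genes are so alike that their probes may not tell them apart. Htra3, a secreted serine protease, had the smallest p of the higher genes at 0.61 ± 0.16, a fold of 1.52, with -1.90, -2.14, -1.28, -1.07 and -0.99 in PtSe mice, against -2.46, -2.61, -1.82 and -1.61 in Pt mice. The groups overlapped, and the second probe of the gene gave -0.56, so the mean of both probes was 0.022. The probe used lies at chr5:36006658-36006717 on mm9.

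Differences were 0.73 ± 0.23 for Rasd1, a Ras-related protein first known as induced by dexamethasone, and 0.70 ± 0.23 for Ubash3a, which dampens T cell receptor signalling. Ankrd26 (0.65 ± 0.20), the retroviral-like protease gene Ddi2 (0.57 ± 0.18) and the ubiquitin ligase Trim65 (0.48 ± 0.16) complete the higher genes. In Ankrd26 Pt mouse 1 was the lowest of all mice at -2.44, and in Ddi2 PtSe mouse 5 was the highest at -1.002. The difference of Ddi2 without PtSe mouse 5 was 0.40, that of Ankrd26 without Pt mouse 1 was 0.41 and that of Rasd1 without Pt mouse 3 was 0.47.

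Among the lower genes, Unc93a, a transmembrane protein of the Unc93 family, had the smallest p. It read -0.40, -0.80, -0.0048, -0.37 and 0.50 in PtSe mice, against 0.91, 0.086, 0.83 and 0.69 in Pt mice, a difference of -0.88 ± 0.20 and a fold of 0.54, measured by a probe at chr17:13301486-13301545 (mm9). Only Pt mouse 2 fell within the range of the PtSe mice. Csf1, the colony-stimulating factor of macrophages, read 1.81, 2.49, 2.23, 2.10 and 2.63 in PtSe mice, against 2.30, 3.07, 3.11 and 2.96 in Pt mice, with a difference of -0.60 ± 0.15 and its probe at chr3:107544333-107544392 (mm9). Here only Pt mouse 1 overlapped the PtSe mice. Tmem140, a transmembrane protein of little-known function, read 1.82, 1.98, 2.09, 1.92 and 1.73 in PtSe mice, against 2.76, 2.06, 3.66 and 2.55 in Pt mice. All PtSe mice lay close together and Pt mouse 3 was the highest, and the difference of -0.89 ± 0.21 became -0.63 without that mouse.

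Inhba, a subunit of activin A, had a difference of -0.69 ± 0.18, and Kit, the receptor for stem cell factor that marks mast cells and progenitors, one of -0.54 ± 0.15. Plk3, a stress-response kinase of the polo-like family, read 2.77, 3.27, 2.31, 2.47 and 2.82 in PtSe mice, against 3.60, 3.51, 3.62 and 2.90 in Pt mice (-0.63 ± 0.17). Pt mouse 5 was the lowest of its group there. Lama5, a laminin chain of basement membranes, read -3.03, -2.93, -1.78, -2.61 and -1.91 in PtSe mice, against -1.73, -1.89, -1.64 and -1.20 in Pt mice (-0.91 ± 0.25). Dpys, an enzyme of pyrimidine breakdown, had a difference of -0.77 ± 0.21, but its probe was well above background on 1 of 5 PtSe arrays and on all 4 Pt arrays. It met the conditions for being named through the Pt arrays, so its values too are a description. The transcripts 2900052L18Rik (-0.73 ± 0.18) and 2810021J22Rik (-0.66 ± 0.18) complete the lower genes. The difference of 2810021J22Rik was -0.43 without Pt mouse 3.

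Many of these genes gave dim signals, and the size of their differences depended on the background correction. With normexp correction and an offset of 50, which by its construction shrinks differences between dim spots, the differences were 0.22 for Emilin1, 0.27 for Htra3, 0.24 for Rasd1, 0.22 for Ubash3a and 0.22 for Trim65. Those of Ankrd26, Ddi2 and Kifc5b were 0.37, 0.30 and 0.53. Among the lower genes the correction left -0.14 for Lama5, -0.047 for 2900052L18Rik, 0.0013 for 2810021J22Rik and 0.030 for Dpys. The brighter Unc93a, Csf1, Tmem140 and Plk3 gave -0.59, -0.63, -0.84 and -0.74.

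**Figure D2:**
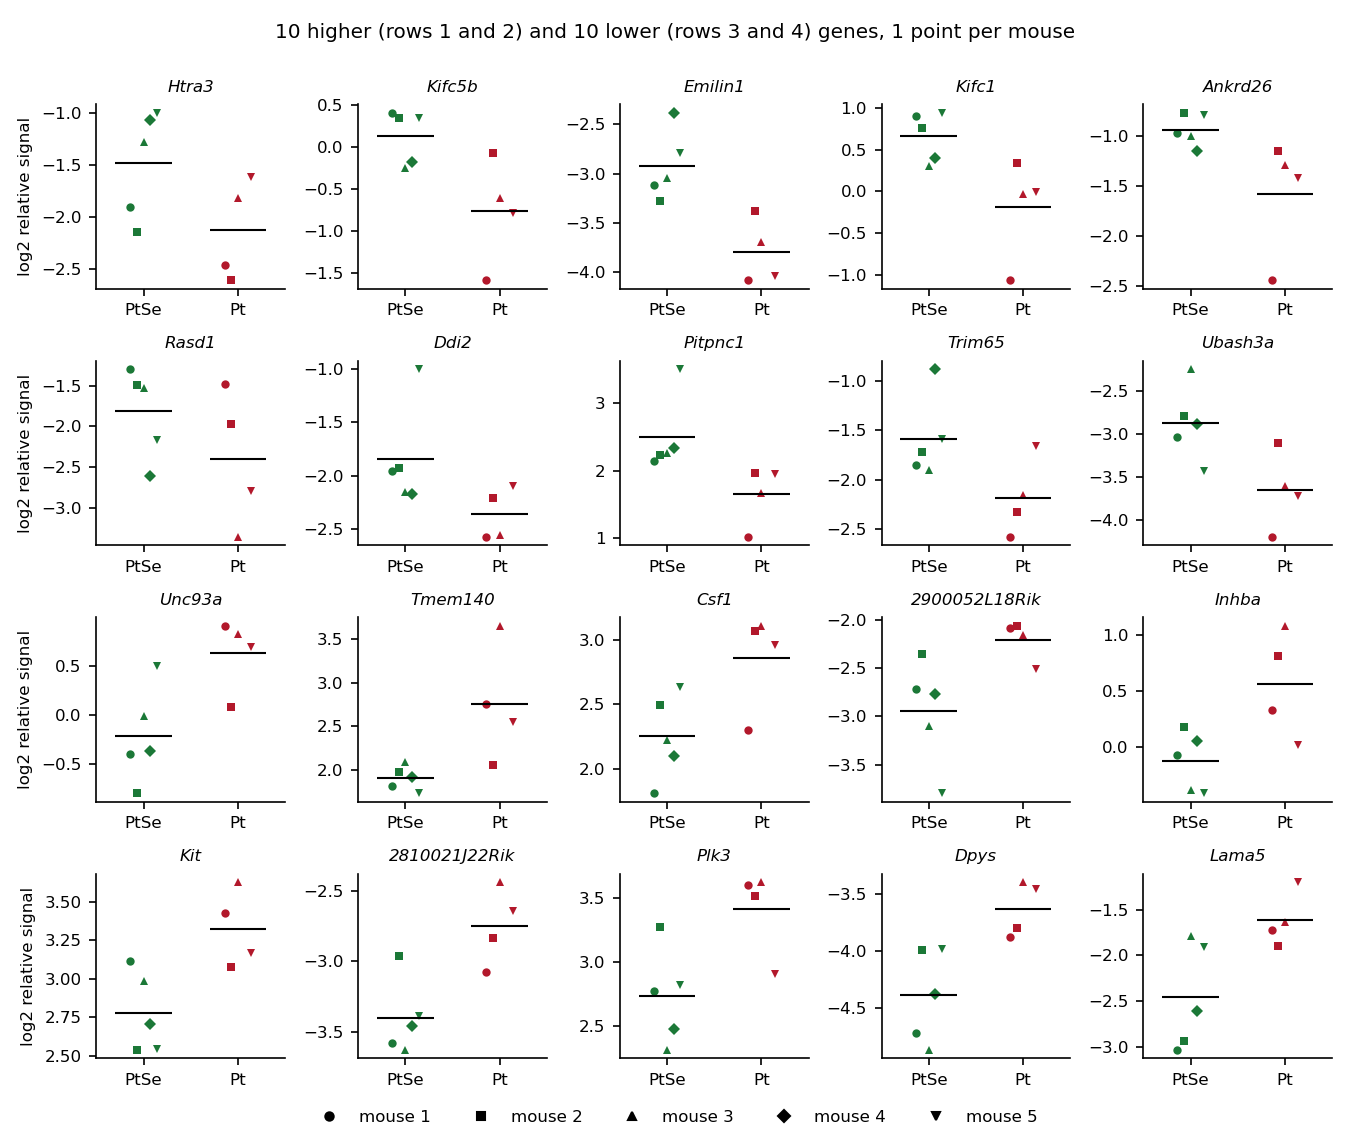
Log2 relative signal (y axis) of the 10 higher genes (upper 2 rows) and 10 lower genes (lower 2 rows) in PtSe and Pt mice (x axis), with 1 point per mouse, the marker shape giving the mouse number and so the slide, and the line the group mean. In Pitpnc1 all PtSe points lie above the Pt points.

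Metallothioneins are small cysteine-rich proteins that bind zinc and copper, and the transcription factor MTF1 switches their genes on by binding metal response elements in the promoters. The study followed metallothionein up as protein in spleen cells treated in culture, which is not analysed here. The promoters of Mt1 and Mt2 are shown because these genes head the group. They are the 250 bases before the start site from RefSeq on GRCm38.p6, chr8:94178839-94179088 for Mt1 and chr8:94172368-94172617 for Mt2, both on the plus strand. Capitals mark the core of the metal response element, TGCACNC or TGCGCNC on either strand, where overlapping matches are marked together.
Mt1: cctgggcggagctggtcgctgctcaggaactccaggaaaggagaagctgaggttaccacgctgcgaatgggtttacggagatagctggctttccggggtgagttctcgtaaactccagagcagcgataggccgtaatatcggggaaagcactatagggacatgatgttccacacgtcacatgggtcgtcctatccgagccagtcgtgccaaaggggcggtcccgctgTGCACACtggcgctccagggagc
Mt2: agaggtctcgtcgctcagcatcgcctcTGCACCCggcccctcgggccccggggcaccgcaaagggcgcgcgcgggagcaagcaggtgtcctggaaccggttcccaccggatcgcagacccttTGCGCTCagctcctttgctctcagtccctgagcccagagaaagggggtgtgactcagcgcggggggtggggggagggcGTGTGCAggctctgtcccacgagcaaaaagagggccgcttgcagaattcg
The core was found once in the Mt1 window and 3 times in the Mt2 window. Bases outside these windows, including those after the RefSeq start site, were not searched, so the counts do not cover the whole promoters. It occurs in 21.4% of 32851 promoter windows of this length, and a match is a description and not a binding site.

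Mt1 and Mt2 averaged lower in PtSe mice, without passing the test. Mt1 read 6.13, 3.51, 3.03, 2.67 and 3.94 in PtSe mice, against 5.35, 3.92, 5.12 and 4.58 in Pt mice, and averaged 3.86 ± 1.36 in PtSe (SD, n = 5) and 4.74 ± 0.64 in Pt (SD, n = 4). PtSe mouse 1 was the highest of all 9 mice, and of the other PtSe mice only mouse 5 reached the lowest Pt mouse. The difference was -0.65 ± 0.37 (limma adjusted p = 0.926), with PtSe lower on 3 of 4 slides. Mt2 read 7.80, 4.94, 4.37, 3.80 and 5.18 in PtSe mice, against 7.44, 5.71, 6.11 and 5.25 in Pt mice, a difference of -0.60 ± 0.36, again lower on 3 of 4 slides. On slide 1 every group had its highest Mt2 value. Leaving out Pt mouse 3 moved Mt1 to -0.10 and Mt2 to -0.22, and leaving out PtSe mouse 1 moved them to -0.87 and -0.81.

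Of the other metallothioneins, Mt4, known from stratified epithelia, differed by -0.31 ± 0.25 (-0.011 with normexp correction) and Mt3, best known from brain, by 0.019 ± 0.19. The median of the 4 genes was -0.46, with slide medians of -0.045, -0.34, -0.88 and -0.11 on slides 1, 2, 3 and 5, and -0.16 without Pt mouse 3. Among 18 genes of zinc transport and sensing, 6 lay higher and 12 lower (66.7%, against 49.2% of all genes) with a median of -0.034 (-0.080 without PtSe mouse 5). They include the zinc exporter Slc30a1 (-0.25 ± 0.20), the importer Slc39a10 (0.27 ± 0.41), the importer Slc39a4 (-0.43 ± 0.19) and the sensor Mtf1 (-0.16 ± 0.14). Slc39a4 alone among them had an unadjusted p under 0.05, and its difference without PtSe mouse 5 was -0.25.

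Selenoprotein genes lay on both sides of 0. Of 20 tested, 11 lay higher and 9 lower, 0 higher and 1 lower (5%, against 2.18% of all genes) at an unadjusted p under 0.05. The median was 0.025 (-0.040 without PtSe mouse 5, and -0.092 after median centring, which gave -0.11 for all genes). The gene past that p was Txnrd1, the cytosolic thioredoxin reductase, which read 3.92, 3.92, 3.87, 4.10 and 4.37 in PtSe mice, against 4.81, 4.35, 4.72 and 4.04 in Pt mice (-0.41 ± 0.17). Pt mouse 5 lay among the PtSe mice and the other Pt mice above most of them. Gpx1, the cytosolic glutathione peroxidase, read 6.14, 5.997, 5.52, 5.55 and 5.45 in PtSe mice, against 5.48, 6.13, 4.93 and 6.02 in Pt mice (0.13 ± 0.19). Gpx4, which reduces lipid peroxides, read 4.82, 4.97, 4.94, 4.97 and 5.39 in PtSe mice, against 4.99, 4.95, 4.72 and 4.95 in Pt mice (0.13 ± 0.18). The groups overlapped in Gpx1, and in Gpx4 PtSe mouse 5 was the highest and Pt mouse 3 the lowest. Without PtSe mouse 5 the Gpx4 difference was -0.032.

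Selenow, a small selenoprotein abundant in muscle, differed by 0.23 ± 0.16, and Selenop, the selenium carrier of plasma, by 0.11 ± 0.19. The remaining members named here were Selenot of the endoplasmic reticulum (0.38 ± 0.21, but -0.070 as the mean of its probes), Selenom (0.40 ± 0.29) and the mitochondrial Selenoo (-0.26 ± 0.15). In Selenom PtSe mouse 5 was again the highest at 2.24, against 0.40 to 0.63 in the other PtSe mice, and the difference without it was 0.024. Of 12 genes that handle selenium or insert selenocysteine, 6 lay higher and 6 lower, none at an unadjusted p under 0.05, with a median of -0.045 (0.028 without PtSe mouse 5).

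Genes of the NRF2 pathway, which answers electrophiles and oxidants with glutathione synthesis and detoxification, split in both directions. Of 37 tested, 15 lay higher and 22 lower, with 3 higher (8.11%, against 2.33% of all genes) and 3 lower (8.11%, against 2.18%) at an unadjusted p under 0.05. The median was -0.058 (-0.10 without PtSe mouse 5). Srxn1, the sulfiredoxin that repairs oxidised peroxiredoxins, read 2.38, 3.04, 2.58, 2.71 and 2.42 in PtSe mice, against 3.38, 3.19, 4.59 and 3.06 in Pt mice. Every PtSe mouse lay below every Pt mouse, as held for 0.442% of all genes in this direction. Srxn1 was named for its small p within the list, which favours such genes, so the lack of overlap is a description. Pt mouse 3 was the highest, and the difference was -0.90 ± 0.25 (-0.53 without Pt mouse 3, and -0.63 as the mean of its probes). Ftl1, the ferritin light chain that stores iron, read 5.56, 5.63, 5.68, 5.84 and 4.84 in PtSe mice, against 6.38, 5.67, 6.35 and 6.17 in Pt mice. The difference of -0.68 ± 0.21 held its direction without PtSe mouse 5, the lowest, at -0.46.

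Hmox1, the haem oxygenase that frees iron from haem, read 2.59, 1.46, 1.94, 2.44 and 2.48 in PtSe mice, against 3.49, 1.88, 5.14 and 2.37 in Pt mice. Pt mouse 3 was far the highest, and the difference of -1.07 ± 0.54 was -0.30 without it. Osgin1, an oxidative-stress growth inhibitor, differed by -0.62 ± 0.27 (-0.30 without Pt mouse 3), while Keap1, the inhibitor of NRF2, differed by 0.46 ± 0.19 (0.29 without PtSe mouse 5). The other 2 higher genes at an unadjusted p under 0.05 were the pentose phosphate enzyme Tkt (0.38 ± 0.16, or 0.053 as the mean of its probes) and the peroxiredoxin Prdx2 (0.40 ± 0.18, or 0.25 without PtSe mouse 5), which are named because of their values. Besides Hmox1, the defining genes of the list differed by less than their error: the quinone reductase Nqo1 (0.065 ± 0.29), the glutathione synthesis subunit Gclm (0.085 ± 0.30) and Nfe2l2, which encodes NRF2 itself (0.29 ± 0.32). Of the 6 genes of the aryl hydrocarbon receptor response that were tested, 2 lay higher and 4 lower, with a median of -0.057 (-0.13 without PtSe mouse 5).

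**Figure D3:**
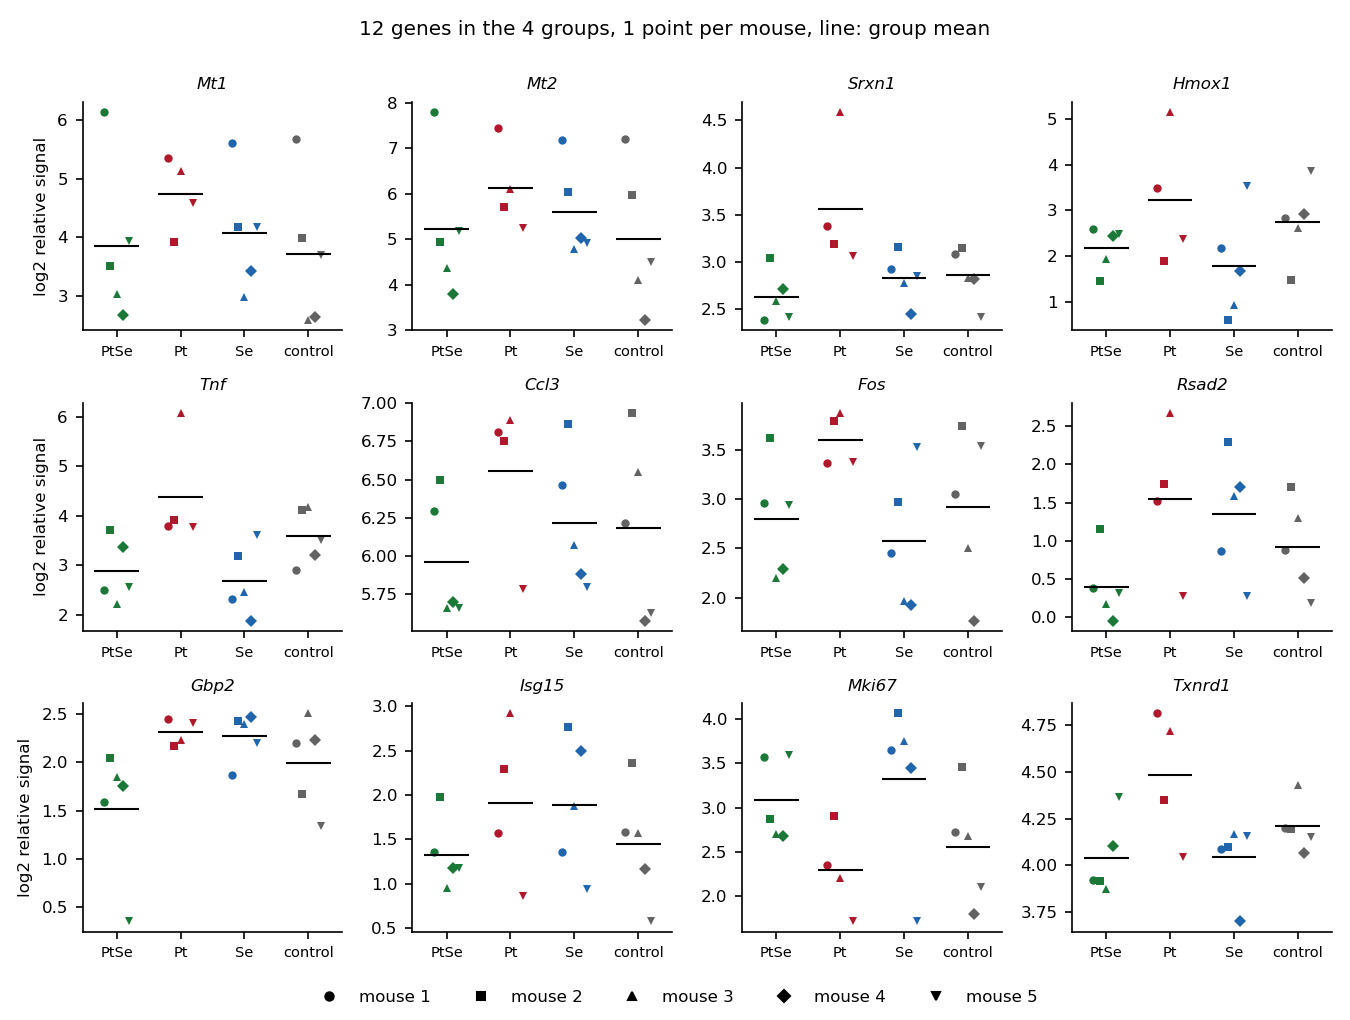
Log2 relative signal (y axis) of 12 genes in the PtSe, Pt, Se and control groups (x axis), with 1 point per mouse, the marker shape giving the mouse number and the line the group mean. In Srxn1, Tnf and Gbp2 every PtSe mouse lies below every Pt mouse, and Pt mouse 3 (triangle) is the highest Pt mouse in Srxn1, Hmox1, Tnf, Fos, Rsad2 and Isg15.

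Cytokine and chemokine genes of NK cells lay mostly lower, and none passed the test. Of 15 tested, 5 lay higher and 10 lower (66.7%, against 49.2% of all genes). At an unadjusted p under 0.05, 1 was higher (6.67%, against 2.33% of all genes) and 2 lower (13.3%, against 2.18%). The median was -0.17, -0.15 without PtSe mouse 5 and -0.10 without PtSe mouse 1, and lower on each of the 4 slides. Tnf, the tumour necrosis factor, read 2.51, 3.71, 2.22, 3.37 and 2.56 in PtSe mice, against 3.80, 3.91, 6.08 and 3.77 in Pt mice. The groups did not overlap, with PtSe mouse 2 only just below the Pt mice, and Pt mouse 3 stood far above all others. The difference was -1.46 ± 0.48 and -0.84 without Pt mouse 3. Ccl3, a chemokine that draws in myeloid and T cells, read 6.30, 6.50, 5.66, 5.70 and 5.66 in PtSe mice, against 6.81, 6.75, 6.89 and 5.79 in Pt mice (-0.50 ± 0.18). Pt mouse 5 was the exception among the Pt mice and lay with the PtSe mice.

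Ccl4, the partner of Ccl3, differed by -0.44 ± 0.30 (-0.11 without Pt mouse 3), Ccl5 by -0.17 ± 0.15 and Ifng, the interferon gamma gene, by -0.20 ± 0.17. Flt3l, a growth factor for dendritic cells (0.33 ± 0.14), and the lymphotoxin subunit Ltb (0.32 ± 0.22) lay on the other side. Ifng read 6.15, 6.41, 5.31, 4.91 and 5.09 in PtSe mice, against 6.42, 6.53, 5.44 and 5.44 in Pt mice, lower on all 4 slides by less than the spread within groups.

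Immediate early genes, which cells switch on within minutes of a stimulus, were lower in 23 of 29 cases and higher in 6 (79.3% lower, against 49.2% of all genes). At an unadjusted p under 0.05 there were 4 lower (13.8%, against 2.18%) and 1 higher (3.45%, against 2.33%). The median was -0.25 with slide medians of -0.29, -0.030, -0.88 and -0.023 on slides 1, 2, 3 and 5, -0.29 without PtSe mouse 5 and -0.096 without Pt mouse 3. Rgs1, a brake on G protein signalling, read 6.04, 6.22, 5.77, 5.64 and 6.22 in PtSe mice, against 6.43, 6.54, 7.84 and 6.31 in Pt mice. Every PtSe mouse lay below every Pt mouse, with a difference of -0.72 ± 0.28, or -0.28 without Pt mouse 3. Zfp36, a protein that degrades cytokine mRNAs, read 5.16, 5.30, 4.46, 4.68 and 5.08 in PtSe mice, against 5.56, 5.58, 5.47 and 5.58 in Pt mice, also without overlap (-0.49 ± 0.20). Fos, a subunit of the AP-1 transcription factor, read 2.96, 3.62, 2.20, 2.29 and 2.93 in PtSe mice, against 3.37, 3.79, 3.87 and 3.37 in Pt mice (-0.61 ± 0.27, or -0.27 without Pt mouse 3).

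Jun, the partner of Fos, differed by -0.57 ± 0.29 and the phosphatase Dusp1 by -0.48 ± 0.23, but without Pt mouse 3 by -0.096 and -0.19. The zinc-finger factors Egr1 and Egr2 differed by -0.93 ± 0.48 and -0.58 ± 0.27. Egr1 read 3.70, 4.16, 2.67, 2.11 and 4.78 in PtSe mice, against 4.60, 3.98, 6.17 and 4.48 in Pt mice, and the difference was -0.18 without Pt mouse 3. Nr4a2, an orphan nuclear receptor, was the 1 higher gene at an unadjusted p under 0.05 (0.39 ± 0.17). In the NF-kappaB pathway, 4 of 26 genes lay higher and 22 lower, none at an unadjusted p under 0.05, 84.6% lower against 49.2% of all genes, and the median of -0.11 was -0.031 without PtSe mouse 5.

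Genes of a pair of stress pathways lay mostly lower, by small amounts, and none passed the test. Of 30 genes of the p53 and DNA damage response, 6 lay higher and 24 lower (80.0%, against 49.2% of all genes), 0 higher and 2 lower at an unadjusted p under 0.05 (6.67%, against 2.18%). The median was -0.16, between -0.24 (without Pt mouse 5) and -0.080 (without Pt mouse 1). The 2 lower genes were Plk3, described above, and Gadd45g, a growth-arrest gene, which read 4.70, 4.60, 4.03, 3.74 and 4.56 in PtSe mice, against 5.24, 4.74, 5.75 and 4.58 in Pt mice (-0.62 ± 0.25, or -0.25 without Pt mouse 3). The cell-cycle inhibitor Cdkn1a (0.073 ± 0.20), the p53 antagonist Mdm2 (-0.25 ± 0.14), Trp53 itself (-0.15 ± 0.27) and the death gene Bbc3 (-0.18 ± 0.21) differed by less than 2 standard errors. Ccng1 and Phlda3, known p53 targets, differed by -0.23 ± 0.14 and -0.29 ± 0.19.

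In the response to endoplasmic reticulum stress and amino acid shortage, 10 of 34 genes lay higher and 24 lower (70.6%, against 49.2% of all genes). At an unadjusted p under 0.05 there were 0 higher and 4 lower (11.8%, against 2.18% of all genes). The median was -0.15, between -0.25 (without Pt mouse 5) and -0.049 (without Pt mouse 1). Slc3a2, a shared chain of amino acid transporters, read 6.53, 6.45, 6.29, 6.43 and 5.82 in PtSe mice, against 6.69, 6.55, 7.02 and 6.66 in Pt mice, without overlap (-0.42 ± 0.18, or -0.26 without Pt mouse 3). Ern1, the stress sensor IRE1, read 1.78, 2.20, 1.73, 1.95 and 2.17 in PtSe mice, against 2.36, 2.25, 2.57 and 2.27 in Pt mice, without overlap (-0.39 ± 0.17, or -0.23 without Pt mouse 3). The asparagine synthetase Asns differed by -0.41 ± 0.16 and the death-linked factor Ddit3 by -0.67 ± 0.30 (-0.34 without Pt mouse 3). Atf3 differed by -0.84 ± 0.41 and by -0.32 without Pt mouse 3. The central regulators Atf4 (0.022 ± 0.15), Hspa5 (-0.19 ± 0.15) and Xbp1 (-0.35 ± 0.27) lay within 1.5 standard errors of 0.

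Interferon-stimulated genes are driven by transcription factors that interferon signals activate, many through the interferon-stimulated response element. Promoters are printed for 4 members of the list, all lower in PtSe and all with the element's core, GAAA, any 2 bases and GAAA again, on either strand, in the 250 bases before the start site. The windows are from RefSeq on GRCm38.p6 and the capitals mark the core. They lie at chr12:26456453-26456702 on the minus strand for Rsad2, chr3:142620413-142620662 on the plus strand for Gbp2, chr5:92348890-92349139 on the minus strand for Cxcl10 and chr4:156200819-156201068 on the minus strand for Isg15.
Rsad2: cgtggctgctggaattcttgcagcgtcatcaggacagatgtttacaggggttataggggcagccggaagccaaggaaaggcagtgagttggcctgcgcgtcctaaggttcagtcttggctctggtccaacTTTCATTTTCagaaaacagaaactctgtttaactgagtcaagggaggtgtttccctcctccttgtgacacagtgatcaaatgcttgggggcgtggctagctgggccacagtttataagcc
Gbp2: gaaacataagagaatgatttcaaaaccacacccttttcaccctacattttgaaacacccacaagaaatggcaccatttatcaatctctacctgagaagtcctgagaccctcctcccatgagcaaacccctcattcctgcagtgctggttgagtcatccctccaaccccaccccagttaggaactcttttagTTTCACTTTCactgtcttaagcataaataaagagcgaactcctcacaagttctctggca
Cxcl10: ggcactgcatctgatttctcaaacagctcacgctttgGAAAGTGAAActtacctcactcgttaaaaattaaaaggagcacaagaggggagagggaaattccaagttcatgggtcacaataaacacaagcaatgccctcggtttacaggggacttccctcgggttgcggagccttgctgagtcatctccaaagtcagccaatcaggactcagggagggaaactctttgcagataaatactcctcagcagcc
Isg15: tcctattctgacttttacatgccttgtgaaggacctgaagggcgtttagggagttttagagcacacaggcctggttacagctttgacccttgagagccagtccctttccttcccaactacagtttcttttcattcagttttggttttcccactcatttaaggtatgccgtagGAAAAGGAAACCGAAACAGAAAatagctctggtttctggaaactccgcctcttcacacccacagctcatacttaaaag
The core occurs in 2.98% of all 32851 windows. Of the list's members with a window, it was found in 11 of 20 lower and in 3 of 6 higher genes. Oas1a, which was higher in PtSe, holds 2 matches in its window, which is not printed.

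Of 37 interferon-stimulated genes tested, 10 lay higher and 27 lower (73.0%, against 49.2% of all genes), with 1 higher and 6 lower (16.2%, against 2.18%) at an unadjusted p under 0.05. None passed the test. The median was -0.17, -0.21 without PtSe mouse 5 and -0.046 without Pt mouse 1, but the slide medians differed in sign, with -0.30, -0.076, 0.20 and 0.14 on slides 1, 2, 3 and 5. Rsad2, the antiviral protein viperin, read 0.38, 1.15, 0.18, -0.042 and 0.31 in PtSe mice, against 1.53, 1.74, 2.67 and 0.28 in Pt mice. PtSe mouse 2 was the highest of its group, Pt mouse 5 lay among the PtSe mice, and the difference was -1.11 ± 0.31. For Rsad2 it was -0.77 without Pt mouse 3 and -0.86 as the mean of its probes. Gbp2, a guanylate-binding protein of cell-autonomous defence, read 1.59, 2.04, 1.84, 1.75 and 0.36 in PtSe mice, against 2.44, 2.17, 2.23 and 2.40 in Pt mice. These groups did not overlap, and without PtSe mouse 5, the lowest, the difference of -0.85 ± 0.26 was -0.60.

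Cxcl10, a chemokine for T and NK cells, read 2.97, 3.81, 2.11, 3.12 and 1.87 in PtSe mice, against 3.62, 4.22, 4.32 and 2.39 in Pt mice (-0.83 ± 0.31, or -0.47 without PtSe mouse 3). Oasl1, of the oligoadenylate synthetase family, differed by -0.90 ± 0.35, Ifit1 by -0.99 ± 0.43 and the ubiquitin-like Isg15 by -0.60 ± 0.30. Without Pt mouse 3, Oasl1 differed by -0.50 and Isg15 by -0.24. In Ifit1 Pt mouse 3 read 0.22 and the other Pt mice -3.45 to -1.83, and the difference was -0.44 without it. Mx1, an antiviral GTPase, differed by -0.19 ± 0.25, less than its error. The higher gene at an unadjusted p under 0.05 was Oas1a, a sensor of double-stranded RNA (0.65 ± 0.28, or 0.27 without Pt mouse 3), named because of its values.

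Genes of NK identity lay close to 0 as groups. Of 29 NK receptor genes, 15 lay higher and 14 lower, none at an unadjusted p under 0.05, and the median was 0.046. Its sign turned with single mice, for example -0.10 without Pt mouse 1. The activating receptors Ncr1 (-0.34 ± 0.27), Klrb1c, also called NK1.1 (-0.0077 ± 0.16), and Klrk1, also called NKG2D (-0.13 ± 0.20), and the partner chain Klrd1 (-0.13 ± 0.15) differed by less than 1.5 standard errors. Ncr1 read 1.82, 1.56, 1.41, 1.47 and -0.24 in PtSe mice, against 1.60, 1.89, 1.65 and 1.13 in Pt mice, and PtSe mouse 5 alone was low (-0.075 without it). The adhesion receptors Crtam (-0.28 ± 0.18) and Slamf6 (0.36 ± 0.27) and the Ly49 receptors Klra7 (0.18 ± 0.15) and Klra8 (0.19 ± 0.16) are further members.

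Cytotoxic effector genes numbered 5 higher and 14 lower of 19 (73.7% lower, against 49.2% of all genes), with 0 higher and 2 lower (10.5%, against 2.18%) at an unadjusted p under 0.05. The median of -0.067 turned to 0.061 without PtSe mouse 5 and to 0.13 without Pt mouse 5. Both lower genes were granzymes. Gzmc read 2.09, 2.38, 2.35, 2.78 and 2.39 in PtSe mice, against 3.13, 2.77, 2.85 and 2.94 in Pt mice (-0.61 ± 0.18). Gzmb, the main death-inducing granzyme, read 7.07, 6.46, 6.47 and 5.22 in PtSe mice 1, 3, 4 and 5, against 7.01, 6.89, 6.71 and 6.68 in Pt mice, and the fit had no value for PtSe mouse 2, whose spot the scanner software marked as an outlier (-0.50 ± 0.23). PtSe mouse 5 was the lowest, and the difference without it was -0.22. Srgn, the granule proteoglycan serglycin, differed by -0.23 ± 0.13 without overlap between the groups, as held for 0.442% of all genes in this direction. Perforin, Prf1 (-0.067 ± 0.29), the granzymes Gzma (0.082 ± 0.21) and Gzmk (0.46 ± 0.32, or 0.14 without PtSe mouse 3) and the granule-docking Unc13d (0.18 ± 0.14) showed no shared direction.

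The other NK lists gave medians of -0.0037 for 19 signalling adaptors, -0.035 for 21 transcription factors, 0.0064 for 22 genes of maturation and trafficking, -0.073 for 34 interleukin receptor and Jak-Stat genes and 0.023 for 23 genes of calcium entry and NFAT. Without PtSe mouse 5 these medians were 0.012, -0.019, 0.13, -0.073 and 0.016 in the same order, against -0.046 for all genes. At an unadjusted p under 0.05, 2.33% of all genes were higher and 2.18% lower. These lists held 1, 1, 1, 0 and 0 higher and 0, 0, 1, 0 and 1 lower genes in the same order. These were the adaptor Lat (0.65 ± 0.27), the transcription factor Tox (0.57 ± 0.23), the chemokine receptor Ccr2 (0.45 ± 0.20), Kit, described above, and the calcineurin inhibitor Rcan1 (-0.60 ± 0.26).

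Proliferation genes formed the function list with the highest median. Of 44 genes of cell cycle and replication, 40 lay higher (90.9%, against 50.8% of all genes) and 4 lower, 6 higher (13.6%, against 2.33%) and 0 lower at an unadjusted p under 0.05, and none passed the test. The median was 0.47, with slide medians of 0.88, -0.043, 0.35 and 0.53 on slides 1, 2, 3 and 5. It ranged between 0.32 (without PtSe mouse 1) and 0.58 (without PtSe mouse 2) when 1 mouse was left out and was 0.37 without PtSe mouse 5. Mki67, the proliferation antigen Ki-67, read 3.58, 2.87, 2.70, 2.68 and 3.60 in PtSe mice, against 2.35, 2.90, 2.21 and 1.72 in Pt mice. PtSe mice 1 and 5 were the highest and Pt mouse 5 the lowest, and the difference of 0.88 ± 0.37 was 0.51 without PtSe mouse 5. Top2a, the topoisomerase of dividing cells, read 0.39, -0.44, -0.49, -0.46 and 0.10 in PtSe mice, against -1.54, -0.39, -0.997 and -1.08 in Pt mice (0.89 ± 0.34, or 0.58 without Pt mouse 1).

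The mitotic kinesin Kif11 (0.90 ± 0.36), the DNA methylation factor Uhrf1 (0.94 ± 0.42), the replication helicase subunits Mcm3 (0.51 ± 0.22) and Mcm5 (0.14 ± 0.19), cyclin B1 (Ccnb1, 0.69 ± 0.38) and its kinase Cdk1 (0.45 ± 0.44) were further members. Without PtSe mouse 5, Kif11 differed by 0.60 and Uhrf1 by 0.45, and normexp correction gave 0.27 for Kif11. Without PtSe mouse 1, Ccnb1 differed by 0.40 and Cdk1 by 0.13. Neutrophil and erythroid markers, described below, also lay mostly higher, and PtSe mouse 1 had the highest list level of both neutrophil markers and cell cycle genes in the PtSe group. Their part in the result was not tested. DNA repair genes, some of which follow the cell cycle, numbered 22 higher and 16 lower of 38. Their median of 0.068 was -0.015 without PtSe mouse 1. After median centring, which moved the median of all genes to -0.11, it was -0.049. Of 29 heat shock and chaperonin genes, 25 lay higher (86.2%, against 50.8% of all genes) and 4 lower, with a median of 0.11. After median centring of the arrays it was -0.0063, against -0.11 for all genes.

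**Figure D4:**
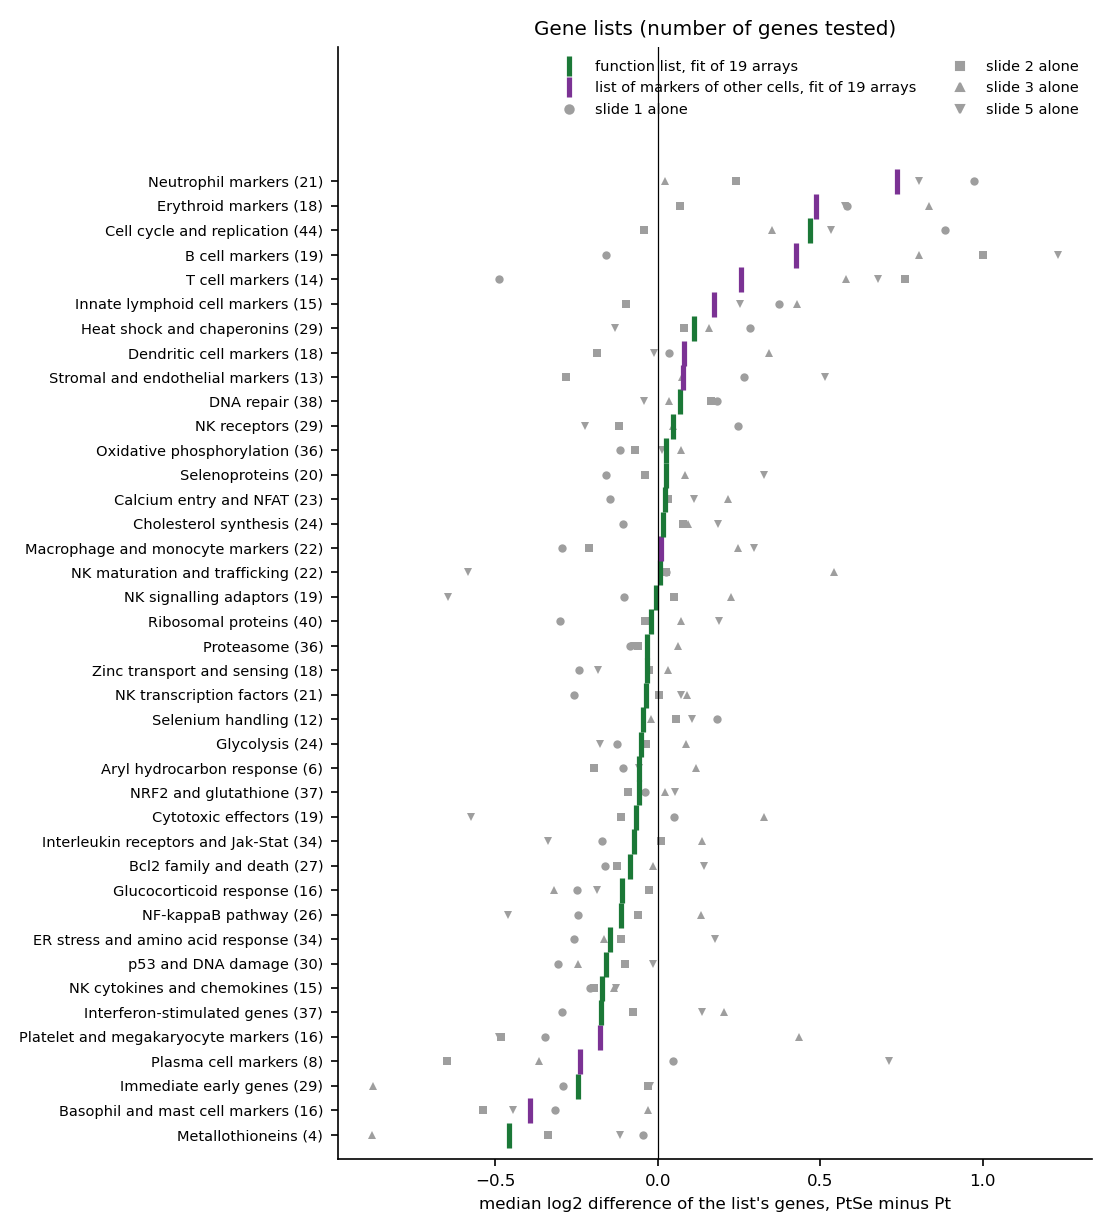
Median log2 difference, PtSe minus Pt (x axis), of 40 gene lists (y axis, number of genes tested in brackets), with the bar for the fit of 19 arrays, green for functions and purple for markers of other cells, and grey points for the PtSe and Pt mice of each slide alone. Neutrophil, erythroid, cell cycle and B cell lists are at the higher end, metallothioneins, basophil and mast cell markers and immediate early genes at the lower end, and most lists lie near 0 with slides on both sides.

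Neutrophil markers had the highest median of all 40 lists, and several other marker lists of spleen cells lay far from 0 as well. Of 21 neutrophil markers tested (of 22 listed), 18 lay higher (85.7%, against 50.8% of all genes) and 3 lower. At an unadjusted p under 0.05, 2 were higher (9.52%, against 2.33% of all genes) and 1 lower (4.76%, against 2.18%). The median was 0.74, with slide medians of 0.97, 0.24, 0.024 and 0.80 on slides 1, 2, 3 and 5. It was 0.53 without PtSe mouse 5 and 0.45 without PtSe mouse 1. Relative to the Pt mean the list stood at 1.58, 0.40, 0.13, 0.37 and 0.33 in PtSe mice, against 0.17, 0.38, 0.083 and -0.39 in Pt mice, and PtSe mouse 1 stood far above the rest. The summed linear signal of the list, in units of the array's 75th percentile, was 459 to 936 in PtSe and 357 to 544 in Pt.

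Elane, the neutrophil elastase made by precursors, read 1.30, 0.34, -0.17, -0.21 and -0.19 in PtSe mice, against -0.52, 0.036, -0.62 and -1.03 in Pt mice (0.87 ± 0.39). The granule proteins of the same stage, Mpo (0.85 ± 0.38) and Prtn3 (0.94 ± 0.45), lay on the same side, and Prtn3 did not overlap between the groups (0.60 without Pt mouse 1). S100a8 (0.86 ± 0.47) and S100a9 (0.74 ± 0.42), the calprotectin subunits of mature neutrophils, also averaged higher. Clec4d (-0.57 ± 0.23) and Il1b (-0.43 ± 0.20), made by activated myeloid cells, lay lower.

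Erythroid markers numbered 15 higher (83.3%, against 50.8% of all genes) and 3 lower of the 18 tested (of 24 listed). At an unadjusted p under 0.05, 3 were higher (16.7%, against 2.33%), and the median was 0.49 (0.57 without PtSe mouse 5). The summed level was 31.9 to 57.1 in PtSe and 31.9 to 50.7 in Pt. Rhd, the rhesus antigen, read -0.44, -1.55, -1.98, -2.20 and -4.10 in PtSe mice, against -2.81, -1.90, -4.45 and -5.48 in Pt mice (1.74 ± 0.67). On slide 5 both mice were low, and the probe was well above background on 4 of 5 PtSe arrays and 2 of 4 Pt arrays. The erythroid membrane proteins Ermap (1.09 ± 0.44) and Slc4a1 (1.11 ± 0.50), the factor Klf1 (1.04 ± 0.54), carbonic anhydrase Car1 (0.88 ± 0.45) and alpha globin Hba-a1 (0.62 ± 0.67) lay on the same side. With normexp correction the differences were 0.48 for Rhd, 0.40 for Ermap, 0.40 for Slc4a1 and 0.35 for Klf1. The list median was then 0.25, and without PtSe mouse 3 Hba-a1 was -0.033.

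B cell markers spread widely between the mice of both groups. Of 19 tested (of 20 listed), 17 lay higher (89.5%, against 50.8% of all genes) and 2 lower, none at an unadjusted p under 0.05. The median of 0.43 ranged between 0.097 (without Pt mouse 5) and 0.82 (without Pt mouse 1). Relative to the Pt mean the list stood at 0.78, 0.68, 1.44, -1.07 and -0.10 in PtSe mice, against 1.01, -0.17, 0.53 and -1.33 in Pt mice. PtSe mouse 4 and Pt mouse 5 were the lowest of their groups, and the summed level was 64.5 to 226 in PtSe and 58.9 to 249 in Pt. Ms4a1, which encodes CD20, read 3.11, 3.31, 3.66, 0.66 and 2.79 in PtSe mice, against 3.34, 1.90, 2.51 and 0.14 in Pt mice (1.05 ± 0.49). Cd79a (0.56 ± 0.37), the factor Ebf1 (1.03 ± 0.62), Bank1 (0.87 ± 0.43) and Cd22 (0.77 ± 0.40) had wide errors, and without Pt mouse 5 Ms4a1 was 0.57 and Ebf1 0.38. T cell markers had a median of 0.26, with 10 of 14 higher (71.4%, against 50.8% of all genes). They summed to 22.4 to 47.9 in PtSe and 25.4 to 43.6 in Pt.

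Basophil and mast cell markers ran the other way. Of 16 tested, 1 lay higher and 15 lower (93.8%, against 49.2% of all genes), 0 higher and 4 lower at an unadjusted p under 0.05 (25%, against 2.18%). The slide medians were -0.32, -0.54, -0.030 and -0.45 on slides 1, 2, 3 and 5. The median was -0.39 (-0.48 without PtSe mouse 5), and leaving out Pt mouse 5 brought it to -0.21. The summed level was 128 to 184 in PtSe and 129 to 234 in Pt. Cd200r3, a basophil and mast cell receptor, read -1.46, -1.17, -0.86, -1.24 and -1.62 in PtSe mice, against -1.44, -0.59, -0.53 and -0.54 in Pt mice (-0.57 ± 0.20), with Pt mouse 1 at the level of the PtSe mice. The mast cell protease Mcpt4 (-0.80 ± 0.33), which was -1.24 without PtSe mouse 5, the cytokine receptor chain Csf2rb2 (-0.50 ± 0.22), the basophil protease Mcpt8 (-0.39 ± 0.28), the IgE receptor chain Fcer1a (-0.47 ± 0.24) and Cpa3 (-0.41 ± 0.26) were lower, and Prss34 was not (0.12 ± 0.36). Without Pt mouse 5, Mcpt8 differed by -0.17, Fcer1a by -0.22 and Cpa3 by -0.13, and normexp correction gave -0.20 for Cd200r3.

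Macrophage and monocyte markers had a median of 0.012 with 12 of 22 higher (54.5%, against 50.8% of all genes). They summed to 526 to 642 in PtSe and 370 to 781 in Pt. The medians of plasma cell (-0.24, 0 of 8 higher), platelet (-0.18, 1 of 16 higher), dendritic cell (0.081), innate lymphoid (0.17) and stromal (0.079) markers came with few genes at an unadjusted p under 0.05, namely 0 higher and 1 lower among all 5 lists, the dendritic cell gene Cd83 (-0.36 ± 0.15). For none of the single genes above was the part of these other cells in the difference tested.

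**Figure D5:**
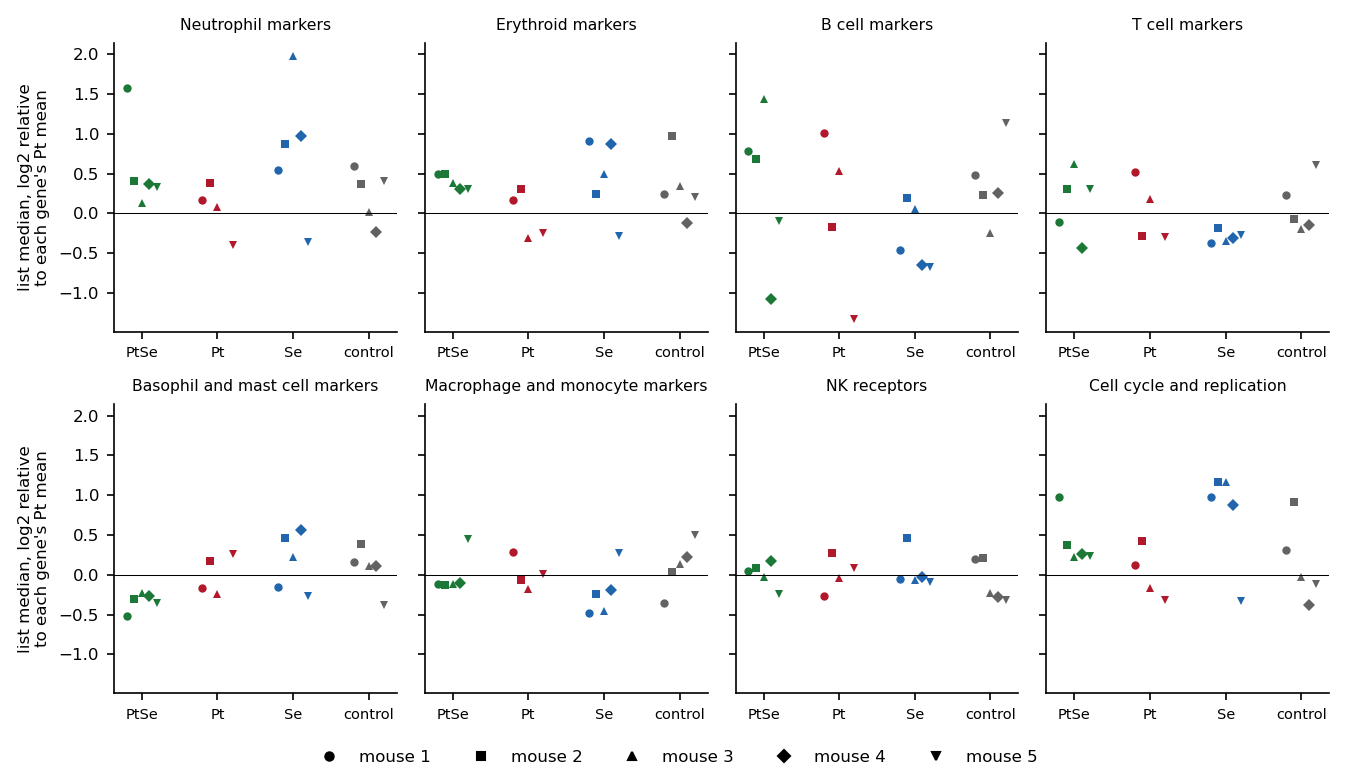
Level of 6 marker lists of other spleen cells, of NK receptors and of cell cycle genes on each array (y axis: median over the list of the log2 difference from each gene's Pt mean) in the PtSe, Pt, Se and control groups (x axis), with 1 point per mouse and the marker shape giving the mouse number. PtSe mouse 1 is the highest PtSe mouse for neutrophil and cell cycle lists, and the B cell list of the PtSe and Pt mice runs from -1.33 to 1.44.

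Lists of general cell functions had medians within 0.1 of 0. They were -0.021 for 40 ribosomal protein genes, 0.027 for 36 genes of oxidative phosphorylation, -0.033 for 36 of the proteasome, -0.051 for 24 of glycolysis, 0.016 for 24 of cholesterol synthesis and -0.086 for 27 of the Bcl2 family and cell death. Together these 6 lists held 0 higher and 3 lower genes at an unadjusted p under 0.05, the aldolase Aldoa (-0.33 ± 0.14), the ATP synthase subunit Atp5h (-0.31 ± 0.14) and the proteasome subunit Psma6 (-0.47 ± 0.20). Of 16 genes of the glucocorticoid response, 7 lay higher and 9 lower, none at an unadjusted p under 0.05. The median was -0.11, with slide medians of -0.25, -0.027, -0.32 and -0.19 on slides 1, 2, 3 and 5, and -0.045 without PtSe mouse 5.

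Several list medians described above kept their sign under normexp background correction and quantile normalization. Among them were the metallothionein, immediate early, NK cytokine, p53, stress-response, interferon-stimulated, cell cycle, neutrophil, erythroid, B cell and basophil lists. Median centring moved the median of all genes to -0.11 and single genes much alike, so lists already below 0 could not turn under it. The higher lists named here lay further above 0 than that shift. Of all 40 list medians, 7 turned sign with normexp correction, 5 with quantile normalization and 11 with median centring.

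Whether selenium acted differently with ptaquiloside than without it was tested as an interaction, PtSe minus Pt less Se minus control. Limma called 0 of 17188 genes (0%, lowest adjusted p = 0.471), with 715 genes at an unadjusted p under 0.05 (4.16%). Among the genes named above, the interaction was -1.54 ± 0.42 for Rsad2, for which PtSe minus Pt was -1.11 and Se minus control 0.43. For Mt1 it was -1.003 ± 0.50, with -0.65 for PtSe minus Pt and 0.36 for Se minus control, and for Mt2 -1.19 ± 0.49. For Tnf both differences had the same sign, -1.46 with ptaquiloside and -0.89 without. All of these interactions had a limma adjusted p of 0.972.

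Set side by side, the medians of PtSe minus Pt and of Se minus control were 0.47 and 0.59 for cell cycle genes, 0.74 and 0.55 for neutrophil markers, -0.17 and 0.43 for interferon-stimulated genes, 0.43 and -0.80 for B cell markers and -0.39 and 0.049 for basophil and mast cell markers. The comparisons of PtSe and Pt with control share the control mice with each other and their treated mice with PtSe minus Pt, so they are given as values only. PtSe minus control and Pt minus control were 0.14 and 0.79 for Mt1, 0.22 and 0.81 for Mt2, -0.71 and 0.75 for Tnf, -0.23 and 0.67 for Srxn1, and 0.53 and -0.34 for Mki67. None of these differences was tested.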

How the data were processed

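RNA of NK cells was hybridised to single-colour Agilent 4x44K mouse arrays, 1 mouse per array. Per the file headers, the deposited scanner files hold spot intensity, background-subtracted but not scaled between arrays, and other columns of flags, made with Agilent Feature Extraction 9.5.3.1 (version per the submitters' processing notes). A deposited log2 table was not used. Control spots and outlier spots were dropped, the log2 of each array's 75th percentile was subtracted from log2 intensity, and probes were kept if 5 or more of 20 arrays had them well above background, the probe of highest mean per gene, leaving 17188 genes.

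Limma 3.58.1 (R 4.3.3) was fitted to 19 arrays with slide as a block and Benjamini-Hochberg adjustment. The slide holds mice of the same number, and same-slide PtSe and Pt mice deviated together (correlations 0.563, 0.556, 0.126 and 0.363). Nothing states whether mice of a group were housed apart. The fit was tested on simulated data with known log2 shifts. Of 17056 genes, 67, 67 and 66 were shifted by 0.5, 1 and 2. At an adjusted p under 0.05 the fit called 11.9%, 49.3% and 89.4% of them. It also called 3 genes that had no shift. The simulated noise was independent between genes and had the same spread on every array, also on that of PtSe mouse 5. The rates hold for such data and that number of shifted genes, and do not give the power of the comparison itself. Genes named are the 10 with the smallest p per direction on 4 slides that were well above background on every PtSe or every Pt array. Also named are Mt1, Mt2, list anchors and up to 4 further members per list. Those further members had the smallest p of their list, with exceptions marked. Members and lists were chosen with earlier results of these data known. Alternatives covered block, arrays, background, scaling, filter, probe rule, variance model, t-test and each mouse left out.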

Additional observations from a re-analysis of the deposited data

Results flagged for a closer look

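Each value here lay apart from the other mice of its group by a Dixon test at the 95% level, which chance alone passes in about 1 of 20 groups. Of 370 groups of values looked at, 36 were marked, and 15 of these were on the array of PtSe mouse 5, the dimmest in use, and 8 on that of Pt mouse 3. The values are log2 relative signals, and those of gene lists are medians relative to the Pt mean. The causes were not tested.

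PtSe mouse 5 stood above the rest of its group for Ddi2 at -1.002 (others -2.18 to -1.93), Gpx4 at 5.39 (others 4.82 to 4.97), Phlda3 at -0.55 (others -1.08 to -0.98) and Pitpnc1 at 3.51 (others 2.15 to 2.33). PtSe mouse 5 stood above the rest of its group for Selenom at 2.24 (others 0.40 to 0.63). PtSe mouse 5 stood below the rest of its group for Ftl1 at 4.84 (others 5.56 to 5.84), Gbp2 at 0.36 (others 1.59 to 2.04), Ncr1 at -0.24 (others 1.41 to 1.82) and Prf1 at 4.12 (others 5.69 to 6.05). PtSe mouse 5 stood below the rest of its group for Selenoo at 0.66 (others 1.13 to 1.31), Slc39a4 at 3.20 (others 3.97 to 4.28) and Xbp1 at 0.82 (others 2.16 to 2.49). PtSe mouse 5 stood above the rest of its group for the list Macrophage and monocyte markers at 0.45 (others -0.13 to -0.10). PtSe mouse 5 stood below the rest of its group for the lists Cytotoxic effectors at -0.54 (others -0.0046 to 0.16) and NF-kappaB pathway at -0.45 (others -0.091 to 0.043). PtSe mouse 1 stood above the rest of its group for Ccnb1 at -1.54 (others -2.82 to -2.53), Prtn3 at 0.66 (others -0.73 to -0.35) and S100a8 at 5.54 (others 3.89 to 4.26). PtSe mouse 1 stood above the rest of its group for the lists Cell cycle and replication at 0.98 (others 0.22 to 0.37) and Neutrophil markers at 1.58 (others 0.13 to 0.40). PtSe mouse 3 stood above the rest of its group for Gzmk at -2.29 (others -3.94 to -3.58). Pt mouse 3 stood above the rest of its group for Atf3 at 6.52 (others 5.22 to 5.41), Klrk1 at 3.67 (others 3.10 to 3.19), Rgs1 at 7.84 (others 6.31 to 6.54) and Tnf at 6.08 (others 3.77 to 3.91). Pt mouse 3 stood below the rest of its group for Gpx4 at 4.72 (others 4.95 to 4.99) and Nqo1 at -1.07 (others -0.54 to -0.51). Pt mouse 3 stood below the rest of its group for the lists Interleukin receptors and Jak-Stat at -0.19 (others 0.057 to 0.097) and Selenoproteins at -0.19 (others 0.042 to 0.081). Pt mouse 5 stood below the rest of its group for Ccl3 at 5.79 (others 6.75 to 6.89), Mcpt4 at -0.54 (others 0.64 to 0.85) and Plk3 at 2.90 (others 3.51 to 3.62). Pt mouse 5 stood below the rest of its group for the list Immediate early genes at -0.29 (others 0.042 to 0.088). Pt mouse 2 stood above the rest of its group for Cdk1 at -1.27 (others -2.40 to -2.26). Pt mouse 2 stood below the rest of its group for Clec4d at 4.25 (others 5.02 to 5.07). Pt mouse 1 stood below the rest of its group for Cd200r3 at -1.44 (others -0.59 to -0.53).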

How the results depend on the processing

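No gene was called for PtSe minus Pt under any of the 20 alternatives. Of the 18 alternatives run for the interaction, 1 gave a call, the transcript AK036773 without PtSe mouse 4 (2.44, limma adjusted p = 0.017), so that this count lay between 0 and 1 when 1 mouse was left out. The counts at an unadjusted p under 0.05 varied more. Higher genes numbered 401 at first, 219 without the replicate block, 88 with normexp background, 204 with median centring, 611 with no filter on dim probes and 177 by the methods' t-test, and lay between 282 and 529 when 1 mouse was left out. Lower genes numbered 375 at first and 147 from only the 9 arrays of both groups, and lay between 252 and 622 when 1 mouse was left out, with 570 without PtSe mouse 5 and 622 without Pt mouse 2. Interaction genes numbered 715 at first, 391 without the replicate block, 356 with the array of Pt mouse 4 and 338 with normexp background, and lay between 565 and 1036 when 1 mouse was left out. The share of higher genes among those counted was 51.7% at first, 45.9% without the block, 73.8% from the 9 arrays, 22.9% with normexp, 31.1% with median centring, 63.6% with no filter, 40.3% by the t-test and 33.1% without PtSe mouse 5. Median centring moved the median of all genes to -0.11. The replicate block changed no call. The cause of these changes was not tested.

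Differences of named genes that changed sign were the following, all uncalled before and after. With the dim array of Pt mouse 4 kept, the sign turned for Bbc3 (0.17), Ccng1 (0.13), Cd3e (-0.29), Cd83 (0.26), Clec4d (0.30), Csf1r (0.24), Cxcl10 (0.15), Ddit3 (0.061), Dusp1 (0.38), Flt3l (-0.078), Fos (0.53), Gzmb (0.17), Gzmc (0.18), Hspa5 (0.63), Ifng (0.048), Kit (0.59), Klrb1c (0.19), Klrd1 (0.25), Mdm2 (0.62), Mt3 (-0.12), Mtf1 (0.55), Ncr1 (0.024), Prf1 (0.24), Psma6 (0.43), Selenom (-0.34), Selenoo (0.21), Slc30a1 (0.39), Slc39a10 (-0.11), Srgn (0.043), Xbp1 (0.36) and Zfp36 (0.11). With normexp background, the sign turned for 2810021J22Rik (0.0013), Adgre1 (-0.11), Atf4 (-0.12), Cdkn1a (-0.0040), Dpys (0.030), Gzma (-0.094), Mt3 (-0.029), Mx1 (0.019) and Selenop (-0.024). With median centring, the sign turned for Adgre1 (-0.10), Atf4 (-0.095), Cdkn1a (-0.043), Gclm (-0.031), Gzma (-0.035), Mt3 (-0.098), Nqo1 (-0.052) and Selenop (-0.0082). With quantile normalization, the sign turned for Gclm (-0.10) and Klrb1c (0.036). With the mean of all tested probes, the sign turned for Adgre1 (-0.022), Klrb1c (0.0098), Nfe2l2 (-0.062), Selenot (-0.070) and Trp53 (0.11). Without the replicate block, the sign turned for Cdkn1a (-0.0026) and Nqo1 (-0.0024). From only the 9 arrays, the sign turned for Atf4 (-0.019). With 1 mouse left out, the sign turned at least once for Adgre1 (-0.40 to 0.21), Atf4 (-0.050 to 0.14), Bbc3 (-0.39 to 0.0090), Cdkn1a (-0.079 to 0.24), Csf1r (-0.44 to 0.12), Gclm (-0.24 to 0.40), Gpx1 (-0.019 to 0.27), Gpx4 (-0.032 to 0.22), Gzma (-0.071 to 0.27), Hba-a1 (-0.033 to 1.30), Klrb1c (-0.12 to 0.14), Klrk1 (-0.27 to 0.044), Mt3 (-0.16 to 0.18), Nfe2l2 (-0.23 to 0.54), Nqo1 (-0.14 to 0.25), Prf1 (-0.29 to 0.25), Prss34 (-0.025 to 0.33), Selenop (-0.094 to 0.24) and Slc39a10 (-0.066 to 0.54). With the array of Pt mouse 4 kept, 19 of the 40 list medians changed sign, 18 of them to positive. Among these were immediate early genes (0.29), interferon-stimulated genes (0.14), the p53 response (0.16), the ER stress response (0.22), the NF-kappaB pathway (0.25), cytotoxic effectors (0.24) and the NRF2 list (0.22). Of the list medians under alternatives, 679 stayed within the spread between slides and 41 moved by more. The number of arrays and, for dim probes, signal over background limit the precision.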
